A study of Homo sapiens with 6 samples.

Results

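The NF-kB genes and inflammatory cytokine genes described here are 10 genes chosen by symbol. They comprise 3 subunits of the transcription factor (NFKB1, NFKB2, RELB), 2 of its inhibitors (NFKBIA, TNFAIP3), 4 secreted signals (IL6, CXCL8, CCL2, LIF) and 1 adhesion molecule (ICAM1), out of 20979 symbols listed in any library. All 10 were listed in all 6 libraries, and 7 reached a mean of 1 TPM (a level scaled by transcript length and to the same total in every library), the minimum for testing. The libraries were made from A172, a human glioblastoma cell line, transfected with 1 of 3 small RNAs, and each group has 2 libraries. The groups are named 5p duplex for miR-324-5p, 3p.1 duplex for miR-324-3p.1, and control for the control miRNA. All cells received the same lipid transfection reagent and serum-containing medium, and RNA was taken after 1 day. The labels give no untransfected cells and no inflammatory stimulus, and they do not say whether replicates were separate cultures, so p-values measure the spread between these libraries only.

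NF-kB is a family of dimeric transcription factors. In resting cells the dimers are held in the cytoplasm by IkB proteins such as IkB-alpha, the product of NFKBIA. Signals from cytokine and pattern-recognition receptors activate the IKK kinase complex, which marks IkB for destruction in the canonical pathway, while the kinase NIK, encoded by MAP3K14, drives processing of the NFKB2 product and release of RELB dimers in the non-canonical pathway. NFKBIA, TNFAIP3, NFKB1, NFKB2 and RELB are themselves NF-kB target genes, which gives the pathway its feedback. In glioblastoma, NF-kB activity is known for its part in the mesenchymal state and in the secretion of cytokines that recruit myeloid cells.

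The transfected sequences and the places where they could pair with these transcripts are shown first. The mature arms of MIR324 are given from RefSeq (GRCh38.p14, minus strand; 5p arm at chr17:7223343-7223364, 3p arm at chr17:7223308-7223330), 5′ to 3′, with the seed, bases 2 to 8, in capitals. The labels do not give the sequence or start of the 3p.1 duplex, so the 3p line shows the RefSeq entry.
hsa-miR-324-5p: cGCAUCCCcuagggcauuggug
hsa-miR-324-3p: cCCACUGCcccaggugcugcugg

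NFKB1 held a 7mer match to the miR-324-5p seed in its longest GENCODE 29 3′UTR (GRCh38). Over all tested genes with an annotated 3′UTR, 14.5% of 11742 held a 7mer or 8mer. The NFKB1 match is of the 7mer-A1 kind (pairing with miRNA bases 2 to 7, followed by an A), shown in capitals with the 10 bases on either side. It lies on the plus strand at chr4:102616824-102616830.
NFKB1 site: ctggctgagcGGATGCAtctggggatg

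Matches to the 3p arm were sought for 3 possible starts of the duplex. For the RefSeq start ICAM1 held a 7mer, where 31.9% of all tested genes with a 3′UTR held a 7mer or 8mer. For a start 1 base further along the hairpin ICAM1 held a 7mer (30.5% of all tested genes held a 7mer or 8mer), and for a start 3 bases further RELB held an 8mer (27.8%). NFKB2, NFKBIA, TNFAIP3, IL6, CXCL8 and CCL2 held no 7mer or 8mer for any of the 4 seeds in these 3′UTRs.

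The promoters were searched for the 10-letter kappaB consensus on both strands, from 250 bases before to 50 bases after the annotated start (RefSeq, GRCh38.p14). The promoter table held 7 of the 10 genes, and 5 of these had a match in at least 1 promoter, NFKB1, NFKB2, NFKBIA, TNFAIP3 and IL6, while those of CXCL8 and ICAM1 had none. Of all 27305 genes in the table, 7.09% had a match. RELB, CCL2 and LIF had no entry. The stretches are printed 5′ to 3′ on the gene's strand, with matches in capitals, only for the 5 genes with a match. A match is a run of letters and does not show binding. Only this consensus was searched, so the lack of a match does not show that no kappaB element is present.
NFKBIA, chr14:35404801-35404850, minus strand: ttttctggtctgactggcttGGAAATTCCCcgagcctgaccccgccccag
TNFAIP3, chr6:137867172-137867233, plus strand: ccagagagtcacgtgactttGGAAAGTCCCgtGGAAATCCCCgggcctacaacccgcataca
NFKB1, chr4:102501290-102501339, plus strand: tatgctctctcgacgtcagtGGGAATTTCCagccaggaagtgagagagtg
NFKB2, chr10:102394451-102394529, plus strand: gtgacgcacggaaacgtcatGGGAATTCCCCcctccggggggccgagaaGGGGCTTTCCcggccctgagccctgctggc
IL6, chr7:22727107-22727156, plus strand: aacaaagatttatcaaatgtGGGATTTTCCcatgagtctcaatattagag

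The first matched base of these stretches stood at -81 from the start for NFKBIA, -67 for TNFAIP3, -49 for NFKB1, -107 for NFKB2 and -73 for IL6. The NFKB2 stretch comes from 1 of 3 promoters in the table and holds 4 matches, 2 on each strand, some of them overlapping. Another NFKB2 promoter held 2 matches and the third held 0. The NFKB1 stretch comes from 1 of 2 promoters in the table, and the other held 0 matches. TNFAIP3 holds 2 matches, both on the opposite strand.

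Markers of cell type and interferon-response genes were read beside these genes. Of 8 glial and glioblastoma markers, vimentin (VIM) stood at 4788 to 5910 TPM, CD44 at 708 to 929 TPM and NES at 90.9 to 133 TPM. OLIG2 stood at 2.75 to 4.98 TPM and SOX2 at 1.75 to 3.29 TPM. The astrocyte marker GFAP stood at 0.05 to 0.25 TPM, FABP7 was at 0 in all but control replicate 1 (0.01 TPM), and S100B had no value. The 6 endothelial markers summed to 1.43 to 2.14 TPM per library. Of 8 leukocyte markers 6 were listed and summed to 12.1 and 12.4 TPM with the 5p duplex, 12.1 and 12.5 TPM with the 3p.1 duplex and 10.8 and 12.1 TPM in control, with PTPRC at 5.52 to 7.48 TPM and CD163 at no more than 0.05 TPM. A set of 25 interferon-response genes summed to 458 and 359 TPM with the 5p duplex, 394 and 407 TPM with the 3p.1 duplex, and 1212 and 3753 TPM in control replicate 1 and 2, so the controls stood apart from the duplex libraries and from each other. What part this has in any difference from control given for the NF-kB genes was not tested. In bulk RNA, fewer cells expressing a gene and less RNA per cell cannot be told apart.

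The 10 genes spanned a wide range of expression. CCL2 and NFKB2 were the most abundant, at means over the 6 libraries of 74.7 and 57.9 TPM, and their ranges overlapped (43.9 to 110 TPM for CCL2 and 52.2 to 67.6 TPM for NFKB2). NFKBIA, LIF and NFKB1 followed at 28.8, 28.7 and 22.9 TPM with overlapping ranges, and then TNFAIP3 at 8.98 TPM and RELB at 4.50 TPM, whose ranges did not overlap. IL6, CXCL8 and ICAM1 averaged 0.347, 0.317 and 0.0783 TPM and stayed below 1 TPM in every library. Of the 4 secreted signals, only CCL2 and LIF reached 1 TPM in any of these libraries.

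**Figure D1:**
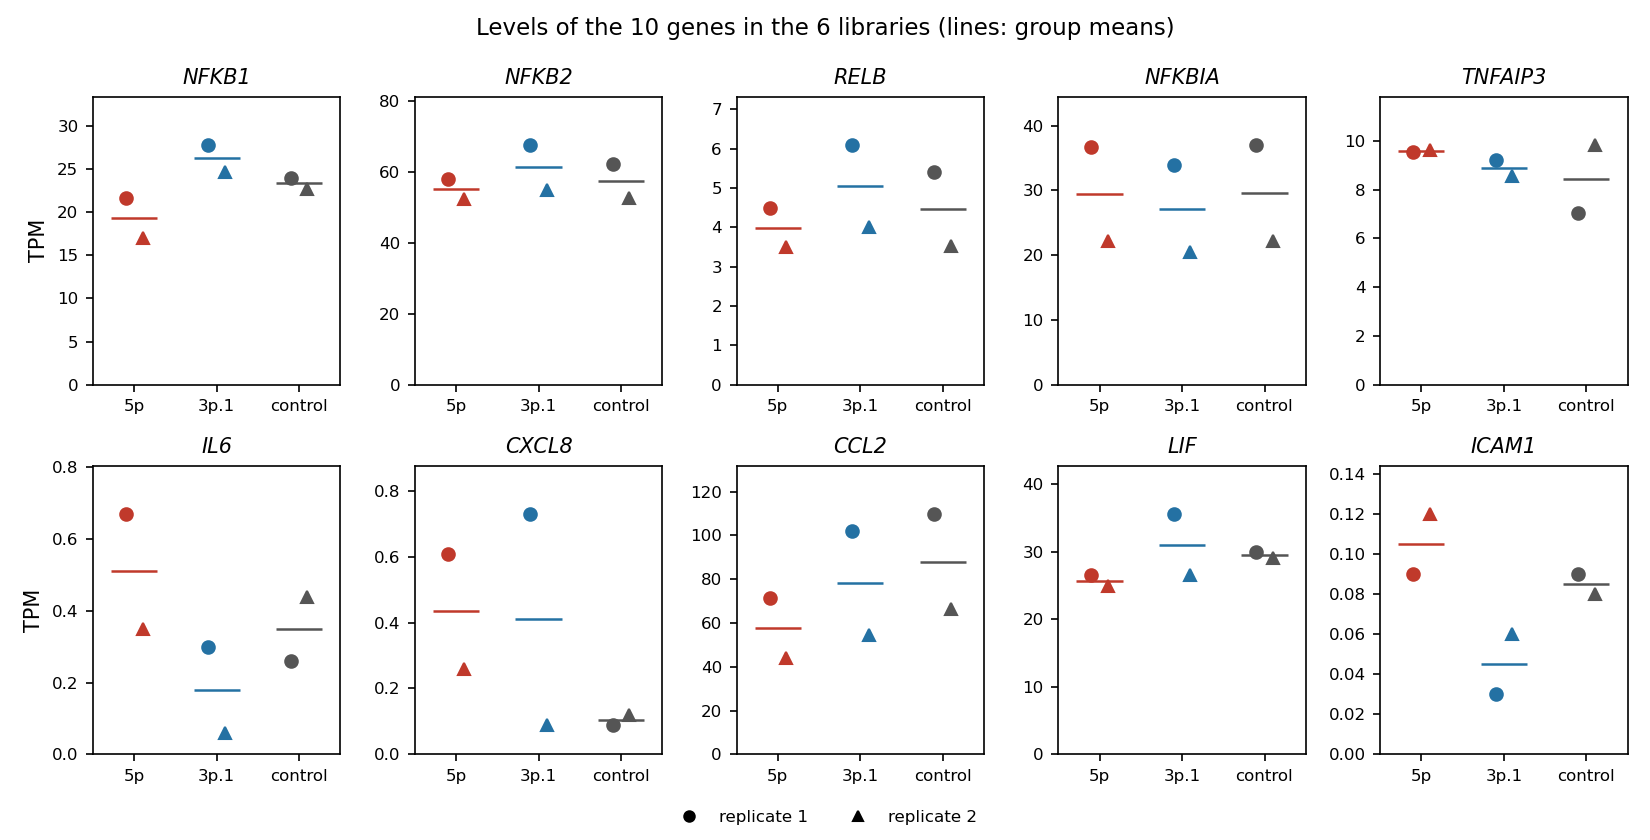
Level in TPM (linear axes starting at 0, one scale per gene) of the 10 genes in the 6 libraries, with replicate 1 as circles, replicate 2 as triangles and the group mean as a line. NFKBIA and CCL2 stand higher in replicate 1 than in replicate 2 in all 3 groups, and IL6, CXCL8 and ICAM1 stay below 1 TPM.

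In the fit of group means, none of the 7 tested genes was called in any of the 3 comparisons, and with the replicate number as a term CCL2 was called lower with the 5p duplex than in control (log2 -0.60, limma's adjusted p = 0.0228). Differences are log2 fold changes of TPM + 1 from limma's moderated test on all 6 libraries, and a gene was called changed at a Benjamini-Hochberg adjusted p under 0.05 over all genes tested. With the 5p duplex against control 0 of 7 were called, where 0.463% of all 13400 tested genes were called. With the 3p.1 duplex against control 0 of 7 were called (0.0149% of all genes), and with the 5p duplex against the 3p.1 duplex 0 of 7 (0.433% of all genes). At an unadjusted p under 0.05 the counts by limma were 0, 0 and 1 of the 7 genes, where 9.16%, 6.86% and 9.34% of all genes passed. The median log2 fold change of the 7 genes was -0.12 with the 5p duplex and 0.08 with the 3p.1 duplex against control, beside -0.03 and -0.03 over all genes, and it was -0.25 between the 5p and the 3p.1 duplex, beside 0.005. The first pair of comparisons shares its control libraries.

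The subunits are described first. NFKB1 encodes p105, the precursor of the p50 subunit (chr4:102501359-102617302). It stood at 21.6 and 17.0 TPM with the 5p duplex, 27.8 and 24.6 TPM with the 3p.1 duplex and 23.9 and 22.7 TPM in control. The 5p duplex libraries were the lowest pair and the 3p.1 duplex libraries the highest, and no 2 groups overlapped. The log2 fold change was -0.43 between the 5p and the 3p.1 duplex (95% interval -0.76 to -0.09, SE 0.138), which is the 1 unadjusted pass named above, and limma's adjusted p was 0.392. Against control it was -0.27 with the 5p duplex (-0.60 to 0.07, adjusted p = 0.646) and 0.16 with the 3p.1 duplex (-0.17 to 0.49, adjusted p = 0.918). Without 1 library these values kept their signs but ranged from -0.43 to -0.10 (5p duplex, without its replicate 1 and 2) and from 0.08 to 0.25 (3p.1 duplex, without its replicate 1 and 2), and the difference between the duplexes ranged from -0.59 to -0.26. Its 3′UTR holds the miR-324-5p match printed with the sequences.

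Groups that do not overlap are common with 2 libraries each. With the 5p duplex against control they did not overlap for 2 of the 7 genes (NFKB1 and LIF), where 34.8% of all tested genes did not. For the 3p.1 duplex against control it was 1 gene (NFKB1), where the share of all genes was 36.3%, and for the 5p against the 3p.1 duplex 3 genes (NFKB1, TNFAIP3 and LIF), where it was 40.4%.

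NFKB2 encodes p100, the precursor of p52 and an inhibitor of RELB. It stood at 58.0 and 52.2 TPM with the 5p duplex, 67.6 and 54.7 TPM with the 3p.1 duplex and 62.2 and 52.6 TPM in control, and all groups overlapped. Its log2 fold change against control was -0.05 with the 5p duplex (95% interval -0.39 to 0.28) and 0.09 with the 3p.1 duplex (-0.25 to 0.43).

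RELB, the non-canonical partner of p52, stood at 4.48 and 3.49 TPM with the 5p duplex, 6.10 and 4.0 TPM with the 3p.1 duplex and 5.40 and 3.53 TPM in control, again with overlap between all groups. Its log2 fold changes against control were -0.12 (95% interval -0.71 to 0.47) with the 5p duplex and 0.15 (-0.45 to 0.74) with the 3p.1 duplex. Both intervals reach beyond the replicate difference of 0.43 given for RELB with the other replicate differences.

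Of the inhibitors, NFKBIA, which encodes IkB-alpha, stood at 36.8 and 22.2 TPM with the 5p duplex, 34.0 and 20.4 TPM with the 3p.1 duplex and 37.1 and 22.3 TPM in control (replicate 1 and 2 in each). Replicate 1 was the higher library in every group, and the groups overlapped. The log2 difference from control was -0.01 in both replicate numbers with the 5p duplex, and -0.12 in both with the 3p.1 duplex. The fitted log2 fold changes, -0.01 and -0.12, had 95% intervals of -0.86 to 0.84 and -0.97 to 0.73 (limma's adjusted p = 0.998 and 0.989).

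TNFAIP3 encodes A20, a ubiquitin-editing enzyme that switches off signalling to IKK. It stood at 9.56 and 9.62 TPM with the 5p duplex, 9.23 and 8.56 TPM with the 3p.1 duplex and 7.05 and 9.85 TPM in control. The duplex libraries lay between the control libraries, and the 5p duplex libraries lay above the 3p.1 duplex libraries. Its log2 fold change against control was 0.18 with the 5p duplex (95% interval -0.21 to 0.57) and 0.08 with the 3p.1 duplex (-0.31 to 0.47).

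CCL2, the chemokine that attracts monocytes, had the largest fitted difference among the 7 tested genes (chr17:34255285-34257203). It stood at 71.6 and 43.9 TPM with the 5p duplex, 102 and 54.5 TPM with the 3p.1 duplex and 110 and 66.3 TPM in control. Replicate 1 was higher in every group by more than the groups differed, so all groups overlapped. The means were 57.7 ± 19.6 TPM with the 5p duplex and 88.1 ± 30.8 TPM in control (SD, n = 2 each), a log2 fold change of -0.60 (95% interval -1.52 to 0.33, SE 0.383, limma's adjusted p = 0.735). Within replicate numbers the log2 difference between the 5p duplex and control was -0.61 in replicate 1 and -0.585 in replicate 2. With the replicate number as a term in the limma fit the log2 fold change was the same, -0.60, with an interval of -0.79 to -0.41 and adjusted p = 0.0228, so the call depends on that term.

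That fit called 1 of the 7 genes with the 5p duplex against control, where 2.74% of all genes were called. It called 0 of 7 with the 3p.1 duplex against control (0.224% of all genes) and 0 of 7 between the 5p and the 3p.1 duplex (2.07% of all genes). For CCL2 the other 2 comparisons gave -0.19 (3p.1 duplex against control, adjusted p = 0.322) and -0.405 (5p against 3p.1 duplex, adjusted p = 0.0654) in the limma fit with the replicate term. The lowest adjusted p of the subunits and inhibitors in that fit was 0.0802, for NFKB1 between the 5p and the 3p.1 duplex.

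LIF, a cytokine of the IL-6 family that signals through LIFR and gp130, stood at 26.5 and 24.9 TPM with the 5p duplex, 35.6 and 26.5 TPM with the 3p.1 duplex and 29.9 and 29.1 TPM in control. The 5p duplex libraries were the lowest pair, and the nearest 3p.1 duplex library lay only just above them. The log2 fold change with the 5p duplex against control was -0.19 (95% interval -0.54 to 0.16, limma's adjusted p = 0.793), and with the 3p.1 duplex it was 0.06 (-0.29 to 0.41).

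**Figure D2:**
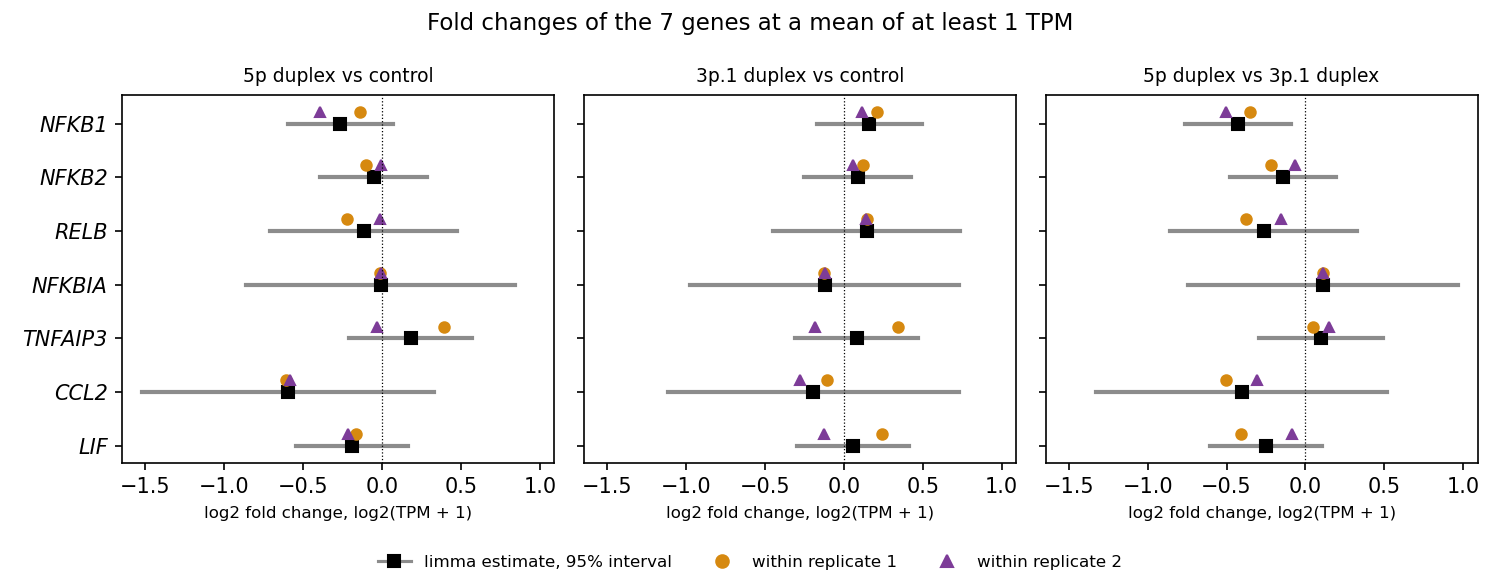
Log2 fold changes of TPM + 1 for the 7 genes at a mean of at least 1 TPM in the 3 comparisons, as limma estimates with 95% intervals (squares, grey lines) and as differences within replicate 1 (circles) and replicate 2 (triangles). For NFKBIA and for CCL2 with the 5p duplex against control, the within-replicate points nearly coincide although the intervals are wide.

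IL6, CXCL8 and ICAM1 were below the level tested. IL6 stood at 0.67 and 0.35 TPM with the 5p duplex, 0.30 and 0.06 TPM with the 3p.1 duplex and 0.26 and 0.44 TPM in control. CXCL8, which encodes the neutrophil chemokine IL-8, stood at 0.61 and 0.26 TPM with the 5p duplex, 0.73 and 0.09 TPM with the 3p.1 duplex and 0.09 and 0.12 TPM in control. ICAM1, a ligand of leukocyte integrins, stood at 0.09 and 0.12 TPM with the 5p duplex, 0.03 and 0.06 TPM with the 3p.1 duplex and 0.09 and 0.08 TPM in control. TPM keeps no read number, so the depth behind these values is unknown and no order among them is drawn. In a limma fit without the minimum level their adjusted p over the 3 comparisons ran from 0.615 to 0.992.

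Several of the 7 genes differed between replicate numbers in the same direction in all 3 groups. NFKBIA was higher in replicate 1 than in replicate 2 by 0.705, 0.705 and 0.711 on the log2 scale in 5p duplex, 3p.1 duplex and control, and CCL2 by 0.69, 0.89 and 0.72. RELB was higher by 0.29, 0.51 and 0.50, and NFKB2 by 0.15, 0.30 and 0.24. In 6 of the 7 genes, all but TNFAIP3, replicate 1 was higher in all 3 groups, which held for 22.4% of all tested genes. The replicate term of the limma fit, examined after these values were seen, called 3 of the 7 genes: NFKBIA (log2 0.71, SE 0.060, adjusted p = 0.00876), CCL2 (0.77, SE 0.0645, adjusted p = 0.00876) and RELB (0.43, SE 0.0912, adjusted p = 0.0413). It called 9.4% of all genes, 480 higher in replicate 1 and 779 higher in replicate 2. The labels tie the numbers to no batch or day, and what differed between the numbers was not tested.

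**Figure D3:**
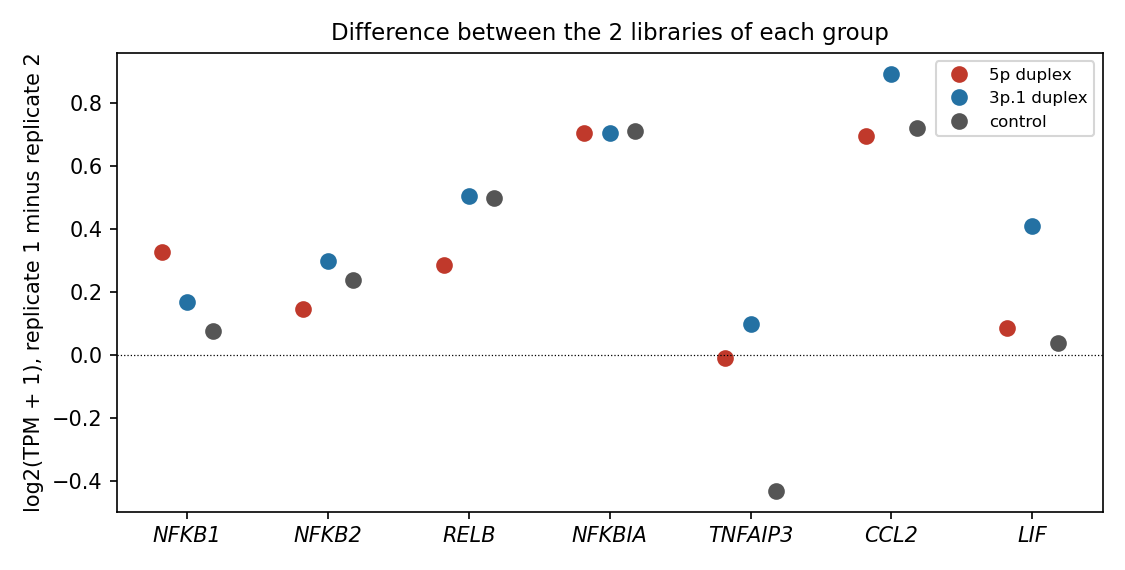
Difference in log2(TPM + 1) between replicate 1 and replicate 2 of each group for the 7 tested genes, with 5p duplex in red, 3p.1 duplex in blue and control in grey. The 3 groups nearly coincide for NFKBIA (0.705 to 0.711), and the control stands apart for TNFAIP3.

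Other genes of the pathway were read the same way. Of 68 genes in 6 further lists, 65 had a value and 50 were tested. With the 5p duplex against control 0 of 50 were called by limma (8 at an unadjusted p under 0.05), with the 3p.1 duplex against control 0 of 50 (9 unadjusted), and between the 5p and the 3p.1 duplex 0 of 50 (8 unadjusted). Over all tested genes 0.463%, 0.0149% and 0.433% were called in these comparisons, and 9.16%, 6.86% and 9.34% passed the unadjusted threshold. Their median log2 fold changes were -0.05, -0.08 and 0.01, beside -0.03, -0.03 and 0.005 over all genes. The replicate term called 9.4% of all genes, 480 higher in replicate 1 and 779 higher in replicate 2. Of the 50 it called 9, of which 7 were higher in replicate 1. Those 7, named here because of that call, were the kinase gene MAP3K14 (log2 0.35), the IkB gene NFKBIE (0.40), the anti-apoptotic ubiquitin ligase gene BIRC3 (0.76), the TNF receptor gene TNFRSF1A (0.40), the RNase gene ZC3H12A (0.56), and the targets SOD2 (0.31) and TNFAIP2 (0.37). The other 2 were the chemokine gene CCL5 (-0.47) and the TWEAK receptor gene TNFRSF12A (-0.30).

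RELA encodes p65, the main activating subunit, and REL a related one. RELA stood at 40.8 and 44.2 TPM with the 5p duplex, 44.1 and 38.9 TPM with the 3p.1 duplex and 44.9 and 40.0 TPM in control. Its log2 fold change against control was 0.00 with the 5p duplex (95% interval -0.26 to 0.27) and -0.03 with the 3p.1 duplex (-0.30 to 0.24). REL stood at 4.70 and 4.51 TPM with the 5p duplex, 4.07 and 4.64 TPM with the 3p.1 duplex and 3.10 and 4.71 TPM in control, with log2 fold changes of 0.21 (95% interval -0.24 to 0.66) and 0.14 (-0.30 to 0.59). The groups of both genes overlapped.

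Seed matches were also sought in the 3′UTRs of the 9 pathway genes that are given with values by rule (REL, RELA, CSF1, BST2, GBP2, MYD88, IL6R, TAB2 and PLAU). A 7mer or 8mer for miR-324-5p was held by 2 of the 9, RELA and REL, and one for the RefSeq start of the 3p arm by 1, TAB2. For a start 1 base further 5 held one (CSF1, MYD88, IL6R, REL and RELA). For a start 3 bases further 5 held one (MYD88, IL6R, TAB2, REL and RELA). Over all tested genes with a 3′UTR the shares were 14.5% (miR-324-5p), 31.9% (RefSeq start), 30.5% (1 base further) and 27.8% (3 bases further). The 3′UTRs of the 9 genes ran from 175 bases (GBP2) to 9075 bases (REL), and the counts are not adjusted for length. Some of the 9 were named for a low adjusted p, and whether they hold matches more often than other genes was not tested.

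The 4 other IkB-family genes, among 6 genes with RELA and REL, had no call, and neither did the 17 kinases and adaptors, with median log2 fold changes of 0.03 with the 5p duplex and 0.01 with the 3p.1 duplex against control. Among the adaptors, MYD88, which links Toll-like and IL-1 receptors to NF-kB, stood at 11.9 and 8.27 TPM with the 5p duplex, 10.2 and 8.45 TPM with the 3p.1 duplex and 14.5 and 22.1 TPM in control (log2 -0.79 and -0.88, limma's adjusted p = 0.349 and 0.523). TAB2, an adaptor of the kinase TAK1, stood at 79.1 and 74.0 TPM with the 5p duplex, 58.4 and 58.3 TPM with the 3p.1 duplex and 71.3 and 75.0 TPM in control. Its 3p.1 duplex libraries lay below the other 4, with a log2 fold change of 0.39 for the 5p over the 3p.1 duplex (limma's adjusted p = 0.211).

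Of 12 receptor genes, 9 were tested, with medians of -0.06 and -0.17 against control. The lowest value was that of TLR3, the receptor for double-stranded RNA, named after its values were seen. Its log2 fold changes were -1.41 with the 5p and -1.26 with the 3p.1 duplex (limma's adjusted p = 0.404 and 0.664). TLR3 stood at 4.83 and 3.65 TPM with the 5p duplex, 5.59 and 4.05 TPM with the 3p.1 duplex and 7.10 and 22.5 TPM in control. Its log2 difference from control was -0.47 (5p) and -0.30 (3p.1) within replicate 1. Within replicate 2 it was -2.34 and -2.22. IL6R, the ligand-binding IL-6 receptor, stood at 1.85 and 1.95 TPM with the 5p duplex, 0.79 and 0.62 TPM with the 3p.1 duplex and 2.21 and 1.84 TPM in control. The 3p.1 duplex libraries were the lowest, with log2 -0.83 against control (95% interval -1.20 to -0.45, limma's adjusted p = 0.334) and log2 0.77 for the 5p over the 3p.1 duplex (0.39 to 1.14, adjusted p = 0.177). At this low level the values depend on the pseudocount, and with 0.1 in place of 1 TPM they were -1.40 (adjusted p = 0.332) and 1.32 (adjusted p = 0.163).

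Of 21 other target genes, 8 were tested. CSF1, the macrophage growth factor, stood at 25.1 and 24.5 TPM with the 5p duplex, 38.2 and 32.0 TPM with the 3p.1 duplex and 39.3 and 43.4 TPM in control. The 5p duplex libraries were the lowest and lay close together (log2 -0.71 against control, 95% interval -0.996 to -0.433, limma's adjusted p = 0.076). CSF1 was called in the limma fit with the replicate term (adjusted p = 0.03), where 2.74% of all genes were called. PLAU, the urokinase gene, stood at 11.9 and 14.9 TPM with the 5p duplex, 7.11 and 8.63 TPM with the 3p.1 duplex and 11.02 and 12.8 TPM in control. It stood higher with the 5p than with the 3p.1 duplex by 0.70 on the log2 scale (limma's adjusted p = 0.219). With the replicate term limma called PLAU in that comparison (adjusted p = 0.0218), where 2.07% of all genes were called.

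Of 6 targets shared with the interferon response 4 were tested. Limma called 0 of 4 with either duplex against control, where 0.463% (5p) and 0.0149% (3p.1) of all genes were called. An unadjusted p under 0.05 was reached by 2 of 4 in each, where 9.16% and 6.86% of all genes passed. BST2, which tethers viruses to the cell surface, stood at 4.66 and 6.44 TPM with the 5p duplex, 3.96 and 5.98 TPM with the 3p.1 duplex and 28.5 and 105 TPM in control. Its log2 fold changes against control were -3.10 and -3.25 (limma's adjusted p = 0.0975 and 0.255). With the replicate term limma called BST2 in both (adjusted p = 0.0136 and 0.0399), where 2.74% and 0.224% of all genes were called. GBP2, a guanylate-binding protein gene, stood at 2.53 and 3.13 TPM, 2.96 and 3.71 TPM, and 4.38 and 4.99 TPM in 5p duplex, 3p.1 duplex and control. GBP2 belongs to a family of related genes among which counting could split reads, which leaves its level uncertain. IRF1, an interferon regulatory factor gene, stood at 10.2 and 6.85 TPM with the 5p duplex, 11.2 and 7.39 TPM with the 3p.1 duplex and 12.3 and 13.5 TPM in control (log2 -0.56 and -0.46, limma's adjusted p = 0.554 and 0.797). The chemokine gene CCL5 stood at 7.76 and 10.3 TPM with the 5p duplex, 7.81 and 10.1 TPM with the 3p.1 duplex and 9.45 and 15.9 TPM in control, so that its groups overlapped (log2 -0.41 and -0.42, adjusted p = 0.731 and 0.841). IRF1 and CCL5 fall outside the rule for named genes and are given to show all 4.

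The 25 interferon-response genes set beside these lists lay below control with each duplex, at median log2 fold changes of -2.73 (5p) and -2.51 (3p.1). All 25 were negative in both comparisons, where 42.7% (5p) and 41% (3p.1) of all genes were positive. Limma called 2 (IFI6 and IRF9) with the 5p duplex and 0 with the 3p.1 duplex, where 0.463% and 0.0149% of all genes were called. All 25 passed an unadjusted p under 0.05 in each, where 9.16% and 6.86% of all genes passed. With the replicate term limma called 16 and 2 of the 25, where 2.74% and 0.224% of all genes were called. The 5 tested subunit and inhibitor genes of NF-kB lay between -0.27 and 0.18 in the same comparisons. With CCL2 and LIF added, the 7 tested genes lay between -0.60 (CCL2) and 0.18 with the 5p duplex. With the 3p.1 duplex they lay between -0.19 (CCL2) and 0.16. That the lists differ in response was not tested.

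**Figure D4:**
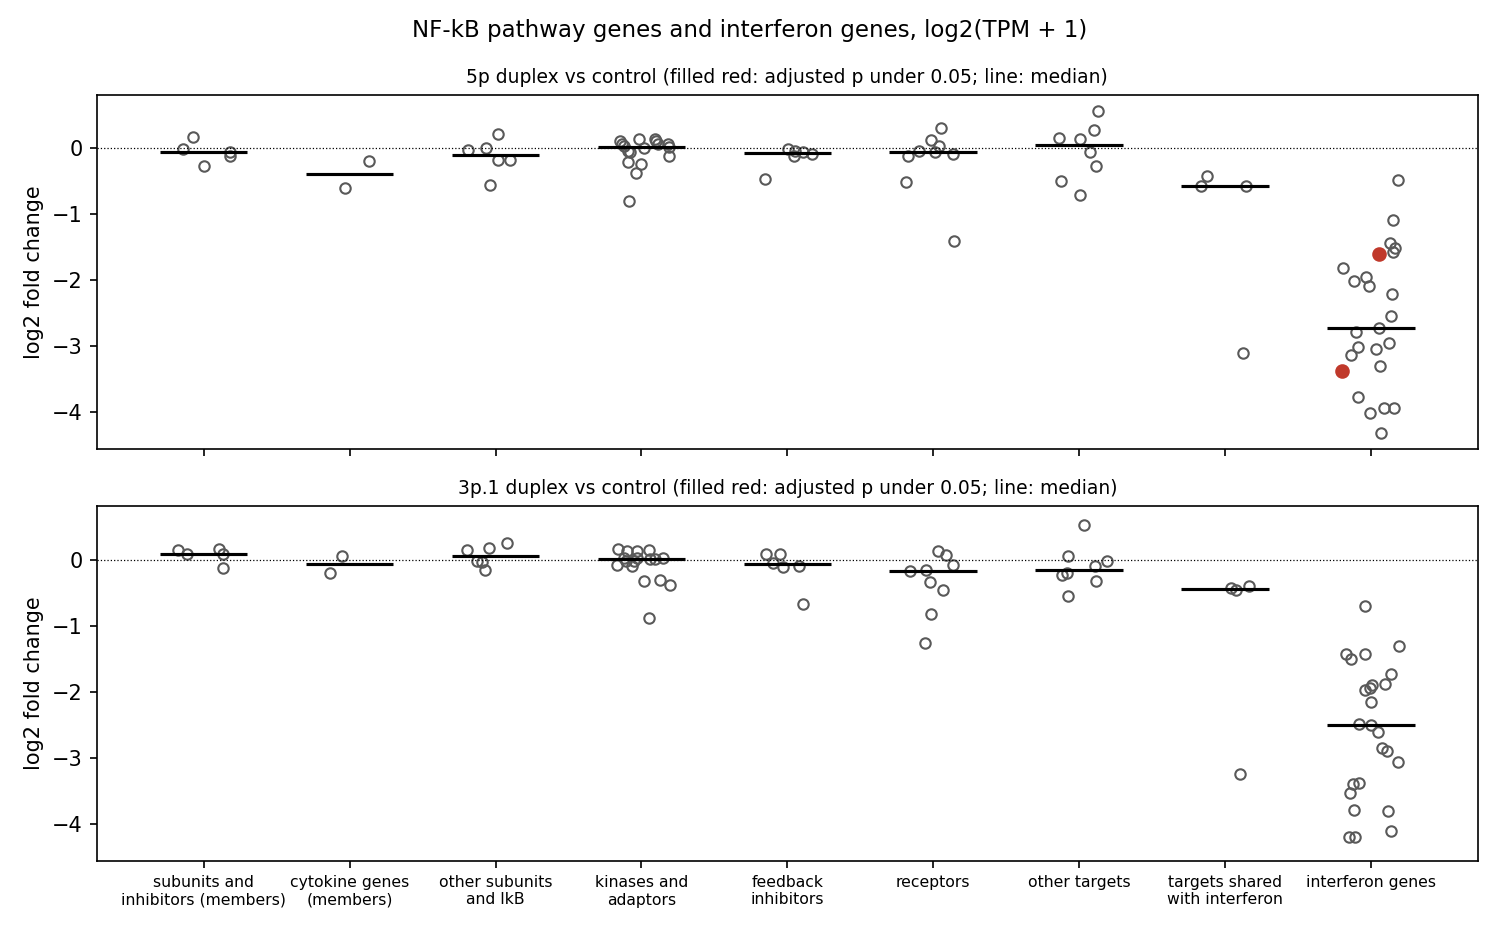
Log2 fold changes of TPM + 1 against control for the 5p duplex (upper panel) and the 3p.1 duplex (lower panel), one point per tested gene, by list, with the list's median as a line and called genes filled red. The NF-kB lists have medians between -0.57 and 0.09, while the 25 interferon genes lie below 0 in both panels.

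The genes whose profile over the 6 libraries lay closest to each NF-kB gene were sought among genes at a mean of at least 5 TPM, by the root mean square difference of centred log2(TPM + 1). For NFKBIA they were EFEMP1, JMY and GSTA4 (0.039, 0.0533 and 0.0604), beside a spread of NFKBIA around its own mean of 0.358. EFEMP1 stood at 11.9 and 7.34 TPM with the 5p duplex, 10.9 and 6.71 TPM with the 3p.1 duplex and 12.9 and 7.19 TPM in control. For CCL2 they were HIST1H1C, PIM1 and TDO2 (0.101, 0.129 and 0.144, beside a spread of 0.460). For NFKB2 they were PSMD3, TNIP1 and PDHX (0.0279 to 0.0331, beside 0.132), of which TNIP1 encodes a binding partner of A20. For NFKB1 they were C16orf52, CLEC2B and KCNK1 (0.0258 to 0.0461, beside 0.207). With 6 libraries such likeness is a description of these libraries only.

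The nearest profiles of the other genes were MPLKIP, LANCL2 and KRT81 for RELB (0.0636 to 0.0645, beside a spread of 0.246), DLC1, NUP153 and CEP135 for TNFAIP3 (0.0354 to 0.0478, beside 0.147), and ANKRD16, TJAP1 and BNIP3 for LIF (0.0357 to 0.0538, beside 0.161). None of the 10 genes was among the 3 nearest profiles of another. RELB, IL6, CXCL8 and ICAM1 could not be, because their means lay under the 5 TPM required of a neighbour.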

How the data were processed

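The authors deposited TPM per gene symbol for each of the 6 libraries; RSEM and GRCh38 are named per the submitters' processing notes, with version, aligner and annotation not given in the sources used here. Per the labels' protocols, libraries were oligo-dT enriched, stranded and read as 100 bp pairs. TPM sums are equal by construction, so depth is unknown. Unlisted symbols were taken as 0, and 21 to 23 repeated symbols per library were summed.

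Genes at a mean of at least 1 TPM (13400 of 20979) were fitted as log2(TPM + 1), which understates changes of low genes, with limma 3.58.1 in R 4.3.3 (group means over all 6 libraries, variance trend, 3 residual degrees of freedom, two-sided tests), after a check on simulated data. An exact permutation test of 2 against 2 libraries cannot go below p = 0.333. Replicate numbers come from the sample titles and are tied to no batch. Deviations of same-numbered libraries from their group means correlated across genes at 0.265, 0.375 and 0.383 in the 3 pairs of groups, so a fit with the number as a replicate block was given where it changed a call.

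Named were the 10 genes, REL and RELA, the pathway genes called or among the 4 lowest adjusted p of a comparison, and the 3 nearest profiles of each gene. Genes and lists were chosen with earlier results of these data known. CXCL1, SELE, PTGS2, S100B, AIF1 and TYROBP had no value here. Seed matches in LIF are not reported here.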

Additional observations from a re-analysis of the deposited data

How the results depend on the processing

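The fit was repeated with a pseudocount of 0.1, no filter, a minimum of 5 TPM, quantile normalization, no variance trend, or only the groups compared. In none of these was a tested gene of the 10 called in any of the 3 comparisons. IL6, CXCL8 and ICAM1 were tested only with no filter, and RELB was not tested at the 5 TPM minimum. The replicate block called 1 gene of the 10, CCL2, in the 5p duplex against control. Of the 50 other pathway genes tested it called 2 (BST2, CSF1) with the 5p duplex against control, in place of 0. It called 1 (BST2) with the 3p.1 duplex against control and 1 (PLAU) between the 5p and the 3p.1 duplex, each in place of 0. Over all genes it called 2.74%, 0.224% and 2.07% in these comparisons. Without control replicate 1, BST2 was -4.03 with the 5p and -4.17 with the 3p.1 duplex, beside -3.10 and -3.25 with all libraries. TLR3, named after its values were seen, was -2.17 and -2.02, beside -1.41 and -1.26. The cause of these shifts was not tested. A fit without 1 library assumes that the lone library of its group varies like the others.

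Directions of small, uncalled values turned. With quantile normalization NFKBIA was 0.048 and IL6R 0.038 in 5p duplex against control. Without 1 library, log2 fold changes for the 5p duplex against control ran from -0.173 to 0.065 (NFKB2), -0.368 to 0.131 (RELB), -0.365 to 0.346 (NFKBIA), -0.035 to 0.396 (TNFAIP3), -0.147 to 0.030 (IL6R), -0.027 to 0.451 (REL) and -0.076 to 0.085 (RELA). For the 3p.1 duplex against control they ran from -0.062 to 0.238 (NFKB2), -0.107 to 0.399 (RELB), -0.477 to 0.234 (NFKBIA), -0.134 to 0.297 (TNFAIP3), -0.639 to 0.253 (CCL2), -0.146 to 0.263 (LIF), -0.095 to 0.383 (REL) and -0.120 to 0.057 (RELA). For the 5p against the 3p.1 duplex they ran from -0.293 to 0.008 (NFKB2), -0.241 to 0.464 (NFKBIA), -0.851 to 0.041 (CCL2), -0.105 to 0.388 (BST2), -0.150 to 0.328 (MYD88), -0.009 to 0.145 (REL) and -0.053 to 0.124 (RELA). CCL2 with the 5p duplex against control stayed negative, from -0.957 to -0.238. Among values that kept their sign without 1 library, some of 5p against 3p.1 duplex moved by over 1.5 times. They were those of RELB (-0.517 to -0.011), LIF (-0.454 to -0.045), TNFAIP3 (0.050 to 0.148), NFKB1 (-0.590 to -0.264) and GBP2 (-0.303 to -0.053).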
